A study of Mus musculus with 10 samples.

Results

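Pericytes and vascular smooth muscle cells, together called mural cells, wrap the endothelial tube from outside and set its calibre and stability. Pericytes are commonly recognised by Rgs5, a regulator of G protein signalling, Cspg4, the NG2 proteoglycan, Kcnj8 and Abcc9, the pore and the sulfonylurea receptor of a potassium channel that closes when ATP is plentiful, and Notch3, a receptor of mural cells that endothelial Notch ligands activate. Smooth muscle cells are recognised by contractile and cytoskeletal proteins: Acta2, smooth muscle actin, Tagln or SM22, an actin-binding protein, Myh11, smooth muscle myosin heavy chain, Des, the intermediate filament desmin, and Cnn1, calponin. These 10 genes, 5 of each class, were taken by name as textbook markers from the 24538 counted genes. They were measured in cells sorted as CD31+/CD45-, a gate for endothelium that mural cells, which lack CD31, should not enter.

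The study compared 5 libraries from lung metastases with 5 libraries from normal lung, all of wild type C57BL6/J mice with an age tag of 8 to 10 weeks. Metastases were seeded by tail vein injection of E0771-LG, a mouse mammary tumour line, into females aged 6 to 8 weeks at injection, and those under 1 mm across were cut out under a microscope, with 2 to 4 mice combined. Normal lungs were handled in parallel, and the labels do not say whether they came from injected mice or how many mice made up a library. Both tissues were dissociated enzymatically (30 min, 37 °C) while transcription was blocked, and the sorted live cells went straight into lysis buffer. Libraries came from an amplification kit for small RNA inputs.

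The 10 genes lie on 6 chromosomes (GRCm38, GENCODE M21 positions, which may not be the authors' annotation). Des (chr1:75360329-75368579, plus strand) and Rgs5 (chr1:169655501-169695813, plus) share chromosome 1, and Cnn1 (chr9:22099216-22109630, plus), Tagln (chr9:45929619-45936058, minus) and Cspg4 (chr9:56865033-56899870, plus) share chromosome 9. Kcnj8 (chr6:142564837-142571614, minus) and Abcc9 (chr6:142587862-142702315, minus), subunits of 1 channel, are neighbours with 16247 bases and 0 annotated genes between them. Myh11 is at chr16:14194535-14291372 (minus), Notch3 at chr17:32120820-32166852 (minus) and Acta2 at chr19:34241090-34255590 (minus). Exons of Tagln overlap an antisense gene by 1241 bases and Pcsk7 by 108 bases, those of Notch3 an antisense gene by 488 bases, Des by 220 bases and Abcc9 by 158 bases. The strand setting of the counting is not given in the sources used here. Reads of these 4 genes are uncertain by that overlap. Acta2 and its actin relatives are near-identical in sequence, so reads could be split among them as well.

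The stretches upstream of Acta2, Des, Kcnj8 and Abcc9 are shown because Acta2 and Des were highest in the same metastasis library, and the 2 channel genes in the same normal library. The sequences are from RefSeq (GRCm38.p6), 250 bases before the start site, 5' to 3' on the gene's strand, in a table that held 8 of the 10 genes and not Tagln or Myh11. Capitals mark matches to the motifs searched, and positions count from the start site.
Acta2 (chr19:34255374-34255623): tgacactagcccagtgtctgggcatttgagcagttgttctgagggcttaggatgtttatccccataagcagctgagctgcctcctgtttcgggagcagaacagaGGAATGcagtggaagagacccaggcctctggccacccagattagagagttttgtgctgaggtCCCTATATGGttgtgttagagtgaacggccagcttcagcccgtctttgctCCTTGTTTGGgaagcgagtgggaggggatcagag
Des (chr1:75360042-75360291): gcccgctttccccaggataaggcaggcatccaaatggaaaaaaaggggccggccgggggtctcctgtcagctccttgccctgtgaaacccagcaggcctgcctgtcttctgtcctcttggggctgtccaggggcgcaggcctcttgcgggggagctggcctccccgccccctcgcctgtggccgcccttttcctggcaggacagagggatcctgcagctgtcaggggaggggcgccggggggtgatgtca
Kcnj8 (chr6:142571615-142571864): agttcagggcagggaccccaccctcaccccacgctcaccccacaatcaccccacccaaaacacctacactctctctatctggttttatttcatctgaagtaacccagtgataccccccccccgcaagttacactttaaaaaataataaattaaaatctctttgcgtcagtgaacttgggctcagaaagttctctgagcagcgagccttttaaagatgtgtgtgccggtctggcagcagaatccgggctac
Abcc9 (chr6:142702275-142702524): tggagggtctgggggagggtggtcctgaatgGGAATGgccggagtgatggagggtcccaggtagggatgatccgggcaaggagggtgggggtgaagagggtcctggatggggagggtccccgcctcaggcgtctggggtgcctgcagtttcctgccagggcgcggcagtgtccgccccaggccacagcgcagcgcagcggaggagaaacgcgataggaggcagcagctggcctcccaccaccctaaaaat
The CArG box, the site that serum response factor (SRF) binds in contractile genes, is CC, then 6 bases that are each A or T, then GG, a pattern read alike on both strands. It occurred in 0 of the 8 promoters in its strict form, against 1.63% of 32851 promoters of the same 300 bases. With 1 departure from A or T allowed, it occurred in Acta2, at -84 to -75 and at -34 to -25, and in none of the other 7 promoters; 9.98% of all promoters held it. GGAATG on either strand, the core letters of the MCAT element for TEAD factors, lay at -146 to -141 in Acta2 and at -219 to -214 in Abcc9, against 14.7% of all promoters. The motifs did not overlap. These are letter matches and describe the windows only.

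Gene-assigned read counts per library ranged from 21.7 to 54.3 M in metastases and from 41.0 to 79.7 M in normal lung. A count of 0 allows up to 3 counts, 0.0553 to 0.138 CPM (counts-per-million, before scaling) in metastases and 0.0376 to 0.0732 CPM in normal lung, and this covers counting error only. Pecam1, the gene of CD31, was lower in metastases (log2 fold change -1.91 ± 0.47 SE, adjusted p = 0.00549) and Ptprc, the gene of CD45, was higher (2.77 ± 0.57, adjusted p = 0.0012; edgeR, Benjamini-Hochberg). Genes shared by all endothelial cells summed to 500 to 3314 FPKM in metastases against 6733 to 10024 FPKM in normal lung, while fibroblast markers summed to 71.8 to 228 FPKM against 1.96 to 19.5 FPKM, and macrophage markers to 498 to 1453 FPKM against 123 to 229 FPKM.

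Most of the mural genes were sparse in both groups, with the bulk of their reads in a few libraries. Myh11 was the exception, with over 10 counts in 9 of 10 libraries. Of the 10 genes 1, Rgs5, passed the test, lower in metastases, and 0 rose. Of all 11823 tested genes, 12% rose and 8.22% fell (edgeR, adjusted p under 0.05). In 14.7% of the tested genes the groups did not overlap, counting either direction. This held for 0 of the 4 tested mural genes and 0 of the 6 not tested. The low-count filter passed 4 of the 10, Rgs5, Acta2, Tagln and Myh11, and left out the other 6. Among these 4, 0 were higher and 1 was lower at an unadjusted p under 0.05 (17.7% and 13.7% of all tested genes) and by DESeq2 (15.9% and 11.2%). Without the filter, an unadjusted edgeR p under 0.05 was reached by 1 of the 10 genes higher, Cnn1, and by 4 lower, Rgs5, Cspg4, Kcnj8 and Myh11, against 20.7% and 15.2% of 16886 genes. Fold changes are on the log2 scale, metastases minus normal lung, and means are CPM on scaled libraries with SD over 5 libraries per group.

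**Figure D1:**
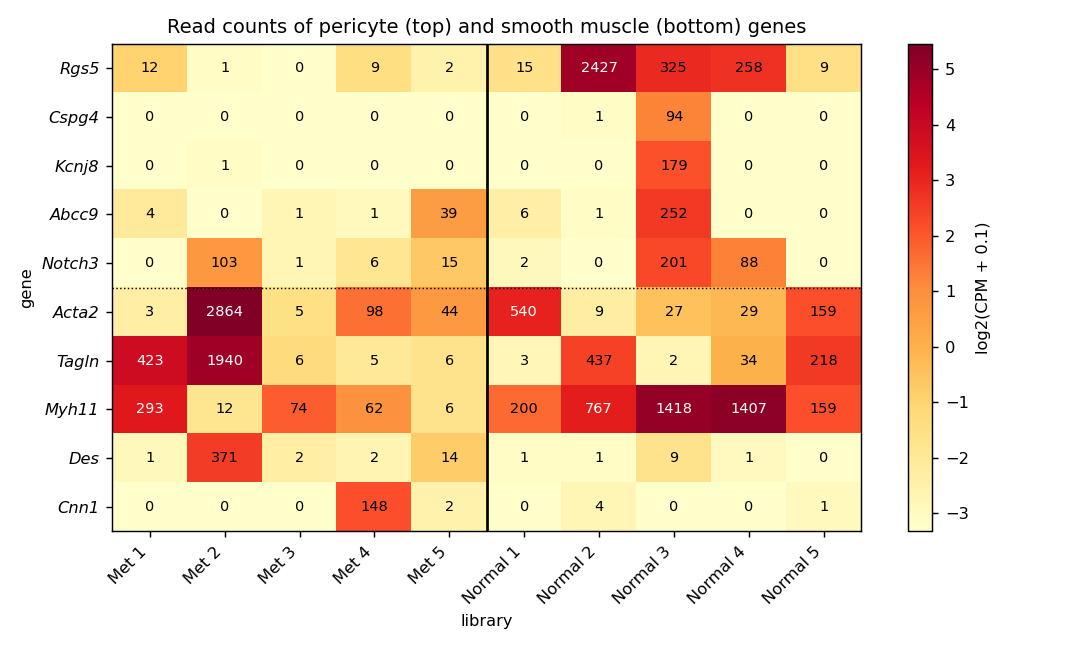
Read counts (numbers) and log2(CPM + 0.1) on scaled libraries (colour) of the 10 genes, pericyte genes above the dotted line and smooth muscle genes below, in metastasis libraries 1 to 5 and normal lung libraries 1 to 5. Most high cells stand alone, such as 179 counts of Kcnj8 in normal lung 3 and 2864 counts of Acta2 in metastasis 2.

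Rgs5, a widely used pericyte gene, had 0.406, 0.0153, 0, 0.261 and 0.0705 CPM in metastasis libraries 1 to 5, against 0.230, 29.0, 7.65, 6.73 and 0.243 CPM in normal lung libraries 1 to 5. All 5 metastasis libraries lay near the floor, normal libraries 2, 3 and 4 lay well above it, and normal libraries 1 and 5 lay within the range of the metastases. Its mean was 0.151 ± 0.177 CPM in metastases and 8.77 ± 11.8 CPM in normal lung (SD, n = 5 each). The fall was -5.84 ± 1.74 SE (adjusted p = 0.0191, edgeR quasi-likelihood test, Benjamini-Hochberg over all tested genes). Without normal lung 2, which held 2427 of the 3058 reads, the difference was -4.62 and the adjusted p 0.07 (edgeR), and without metastasis 2 and normal lung 3 together they were -5.58 and 0.0529. Within libraries 1 and 2 alone the difference was -6.13 (adjusted p = 0.192, edgeR), and within libraries 3 to 5 alone it was -5.38 (adjusted p = 0.083, edgeR). In bulk samples, fewer cells of a type and less RNA per cell cannot be told apart.

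Cspg4, the NG2 proteoglycan of the pericyte surface, had 0 counts in all 5 metastasis libraries, against 94 counts in normal lung 3, 1 in normal lung 2 and 0 in the other normal libraries. Kcnj8, the pore of the channel, had 1 count in metastasis 2 and 0 in the other metastasis libraries, against 179 in normal lung 3 (exact Poisson 95% interval 154 to 207) and 0 in the other normal libraries. Abcc9, its receptor subunit, had 4, 0, 1, 1 and 39 counts in metastasis libraries 1 to 5, against 6, 1, 252, 0 and 0 in normal lung libraries 1 to 5. Normal lung 3 was thus the highest library for both channel genes and for Cspg4, and metastasis 5 held Abcc9 without Kcnj8. Notch3, the mural Notch receptor, had 0, 103, 1, 6 and 15 counts in metastasis libraries 1 to 5, against 2, 0, 201, 88 and 0 in normal lung libraries 1 to 5. It was again highest in normal lung 3, but metastasis 2 also held it. None of the 4 passed the filter, since 1 or a few libraries held nearly all their reads.

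Normal lung 3, the library with these 4 genes, also held 325 counts of Rgs5 and 129 of Rgs4, another RGS gene of pericytes. Rgs4 had 2 counts in normal lung 1, 0 in normal lung 2, 4 and 5, and 1 over all metastasis libraries. Higd1b, another listed pericyte gene, had 0 counts in normal lung 3, against 33 and 113 in normal lung 4 and 5. Of the contractile genes, normal lung 3 held 27 counts of Acta2, 2 of Tagln, 9 of Des and 0 of Cnn1. Its Myh11 count, 1418, was the highest of any library. For other listed contractile genes, it was the highest normal library for Tpm2 (29.9 CPM) and Pln (64.2 CPM). It was the lowest normal library for Myl9 (0.565 CPM) and Smtn (2.68 CPM). The same library held 1612 counts of Postn, a fibroblast matrix gene, and 31977 counts of Scgb1a1, the secretory protein of club cells, an airway epithelial type. Scgb1a1 was also at 20674 counts in normal lung 5, where Cspg4, Kcnj8, Abcc9 and Notch3 were at 0. The part of these other cell types in the values of the mural genes was not tested.

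The 5 pericyte genes summed to 0.0352 to 0.259 FPKM (median 0.112) in metastases, against 0.0586 to 8.38 FPKM (median 1.85) in normal lung. FPKM is a level per transcript length and library depth, meant for comparison between genes. Here its ratio to CPM ran from 0.0106 to 0.502 between libraries for Acta2. At similar exon lengths (2736 and 2548 bases) it was 0.0351 for Cnn1 and 0.888 for Kcnj8, each in 1 library. Comparisons of FPKM between genes are therefore rough. Relative to the pan-endothelial sum, they came to 0.00106 to 0.0519% in metastases and 0.000701 to 0.118% in normal lung. The sums in normal libraries 1 and 5, 0.0702 and 0.0586 FPKM, lay within the range of the metastases.

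Of the contractile genes, Acta2, the actin of smooth muscle and myofibroblasts, had 0.102, 43.8, 0.248, 2.85 and 1.55 CPM in metastasis libraries 1 to 5, against 8.27, 0.108, 0.635, 0.756 and 4.29 CPM in normal lung libraries 1 to 5. Metastasis 2 was far above the rest and the other 4 lay within the range of normal lung or, in metastasis 1, just below it. Acta2 averaged 9.71 ± 19.1 CPM in metastases and 2.81 ± 3.47 CPM in normal lung, a difference of 1.79 ± 1.48 SE on the log2 scale that did not pass (adjusted p = 0.451, edgeR). The value without metastasis 2 was -1.22 (adjusted p = 0.639, edgeR). The high count of normal lung 1, 540, came with only 0.0758 FPKM, a ratio of FPKM to CPM of 0.0106 against 0.129 to 0.502 in the other libraries over 10 counts, so the 2 deposited tables rank that library differently.

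Tagln, an actin-binding protein of smooth muscle, had 14.3, 29.7, 0.298, 0.145 and 0.212 CPM in metastasis libraries 1 to 5, against 0.0459, 5.22, 0.0471, 0.887 and 5.89 CPM in normal lung libraries 1 to 5. Libraries 1 and 2 carried it in metastases and libraries 2 and 5 in normal lung. It averaged 8.93 ± 13.1 CPM in metastases and 2.42 ± 2.89 CPM in normal lung (1.88 ± 1.56 SE, adjusted p = 0.451, edgeR). The difference was 0.62 without metastasis 2, and -1.25 with a term for libraries 1 and 2. Metastasis 1 held 423 counts of Tagln and 3 of Acta2, and normal lung 2 held 437 counts of Tagln and 9 of Acta2, so high Tagln went without Acta2 in both.

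Myh11, the myosin heavy chain of differentiated smooth muscle, was the gene found most evenly. It had 9.92, 0.184, 3.67, 1.80 and 0.212 CPM in metastasis libraries 1 to 5, against 3.06, 9.17, 33.4, 36.7 and 4.29 CPM in normal lung libraries 1 to 5. All 5 normal libraries held it, at 159 counts or more, while metastases 2 and 5 had 12 and 6 counts, and metastasis 1 lay above normal lung 1, 2 and 5. Myh11 averaged 3.16 ± 4.04 CPM in metastases and 17.3 ± 16.4 CPM in normal lung, and the difference of -2.46 ± 1.22 SE did not pass (adjusted p = 0.172, edgeR). It was -3.59 without metastasis 1 (adjusted p = 0.0584, edgeR), -0.26 between libraries 1 and 2 of each group, and -3.73 between libraries 3 to 5 of each group. Metastasis 2, with 2864 counts of Acta2 and 1940 of Tagln, had 12 counts of Myh11, and normal lung 3 and 4, with 1418 and 1407 of Myh11, had 2 and 34 of Tagln. Its FPKM per CPM also varied between libraries, from 0.0471 to 0.280, and normal lung 3 and 4 had 1.37 and 8.58 FPKM on nearly the same count.

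Des, the intermediate filament of muscle and many pericytes, had 1, 371, 2, 2 and 14 counts in metastasis libraries 1 to 5, against 1, 1, 9, 1 and 0 in normal lung libraries 1 to 5. Metastasis 2 held most of them and, without it, the libraries of both groups lay between 0 and 14 counts. Cnn1, a late marker of contractile smooth muscle, had 0, 0, 0, 148 and 2 counts in metastasis libraries 1 to 5, against 0, 4, 0, 0 and 1 in normal lung libraries 1 to 5. It was seen almost alone in metastasis 4, where FPKM was 0.192, a low ratio of FPKM to CPM (0.0351). It was listed at 0 FPKM in all 5 normal libraries. Des and Cnn1 did not pass the filter, and in a fit without a filter neither was called (adjusted p = 0.151 and 0.109, edgeR).

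Metastasis 2, with the most Acta2, Tagln and Des, also held 1397 counts of Pdgfrb, the receptor by which pericytes and fibroblasts answer PDGF-B. Myl9, a myosin light chain of smooth muscle, had 6309 counts there, and Steap4, a metalloreductase found in some pericytes, had 1927. In CPM, Pdgfrb was 21.4 in metastasis 2, 19.2 in metastasis 4 and 14.6 in metastasis 5. In FPKM it was higher in metastasis 4 (5.82) than in metastasis 2 (4.20). Metastasis 2 was the deepest metastasis library, at 54.3 M gene counts. Fibroblast genes were high there too: 21986 counts of Col1a1, a collagen chain, and 2635 of Thy1, a surface protein of fibroblasts and other cells, against 0 to 11 counts of Thy1 in the other 4 metastasis libraries. Cspg4 was at 0, Kcnj8 at 1 and Rgs5 at 1 count in the same library, and Notch3 was at 103 counts. Vtn and Rgs4 were at 0 there as well, and Cald1 (1504 CPM) and Pln (0.337 CPM) were the lowest of the metastases. Normal lung 3, with the highest Pdgfrb of normal lung (423 counts), held all 5 pericyte genes, as given above. Metastasis 4, with Cnn1, held 171 counts of Myocd, the coactivator of SRF in smooth muscle, 275 of Tbx18, a transcription factor of mural cells, and 174 of Vtn, vitronectin, against 0 to 20 counts of these 3 genes in every other library. Other mural genes were near the floor in metastasis 4: Cspg4, Kcnj8, Higd1b and Rgs4 at 0, Des at 2, Tagln at 5 and Rgs5 at 9 counts. Acta2 was at 98 and Myh11 at 62 counts there. The summed fibroblast level was 228 FPKM in metastasis 2 and 71.8 FPKM in metastasis 4, the highest and lowest of the metastases. Its part in these values was not tested.

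**Figure D2:**
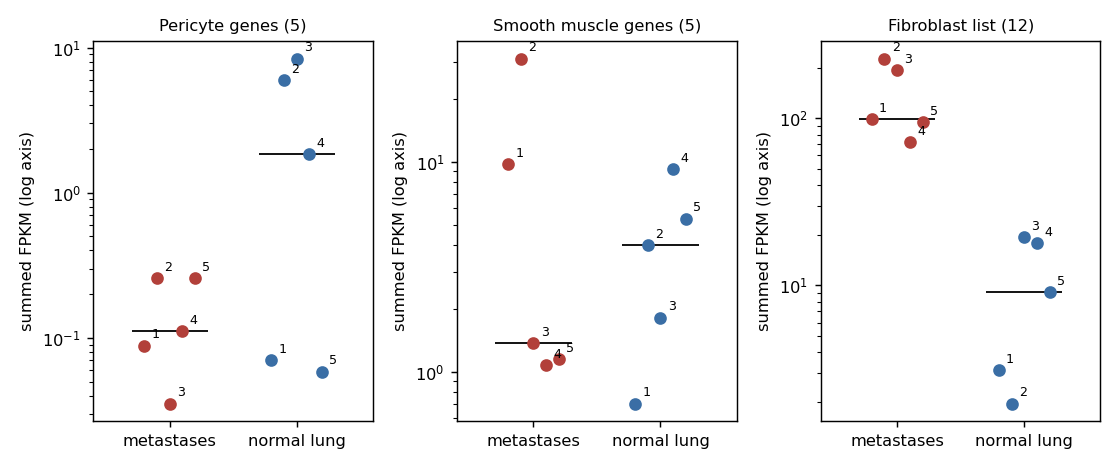
Summed FPKM (log axis) of the 5 pericyte genes, the 5 smooth muscle genes and 12 fibroblast genes, 1 point per library with its replicate number, metastases left of normal lung, and lines at the medians. The pericyte and smooth muscle sums overlap between groups, and the fibroblast sums do not (71.8 to 228 against 1.96 to 19.5 FPKM).

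The 5 smooth muscle genes summed to 1.07 to 31.0 FPKM (median 1.37) in metastases, against 0.705 to 9.24 FPKM (median 4.00) in normal lung. Metastases 1 and 2, at 9.76 and 31.0 FPKM, were above all normal libraries, and metastases 3, 4 and 5, at 1.37, 1.07 and 1.15 FPKM, were above only normal lung 1. The order was different in CPM, where metastasis 1 (24.4 CPM) lay below normal lung 3 and 4 (34.3 and 38.4 CPM) and metastases 3, 4 and 5 (4.32, 9.14 and 2.54 CPM) lay below all 5 normal libraries (11.4 CPM or more). Relative to the pan-endothelial sum, which was itself lower in metastases, they came to 0.0413 to 2.34% in metastases and 0.00703 to 0.131% in normal lung.

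Per length, the order of mean levels in metastases was Tagln (4.09 ± 5.71 FPKM), Acta2 (3.49 ± 7.06), Myh11 (0.684 ± 0.916), Des (0.570 ± 0.988) and Notch3 (0.0804 ± 0.0956), with the other 5 at 0.0388 FPKM or less. In normal lung it was Myh11 (2.34 ± 3.50 FPKM), Rgs5 (1.91 ± 2.42), Tagln (1.31 ± 1.64), Kcnj8 (0.652 ± 1.46), Acta2 (0.517 ± 0.791) and Notch3 (0.382 ± 0.675), with the other 4 at 0.186 FPKM or less (SD, n = 5 each). Neighbours in either order differed by less than the larger of their SDs.

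The share of a gene's summed CPM in its highest library was 35.8% for Myh11, 50.4% for Notch3, 52.3% for Tagln, 65.0% for Rgs5, 70.0% for Acta2, 77.8% for Abcc9, 85.7% for Des, 96.7% for Cnn1, 99.5% for Cspg4 and 99.6% for Kcnj8. The highest library was normal lung 3 for 4 genes, metastasis 2 for 3, and normal lung 2, normal lung 4 and metastasis 4 for 1 each. Of the 15031 genes with at least 50 counts, 1043 (6.94%) had over 90% in 1 library, and the median share was 34.4%. Among the 10 mural genes 3 were over 90%, Cnn1, Cspg4 and Kcnj8, and the low-count filter left out all 3. Of the 1043 genes over 90%, only 33 passed that filter, so such shares belong mostly to sparse genes. No share for genes as sparse as these 3 is given, so nothing particular to the mural genes follows. Over all genes, metastasis 2 was the library with most such genes, 171, against 55 to 155 in every other library, and normal lung 3 had 89.

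**Figure D3:**
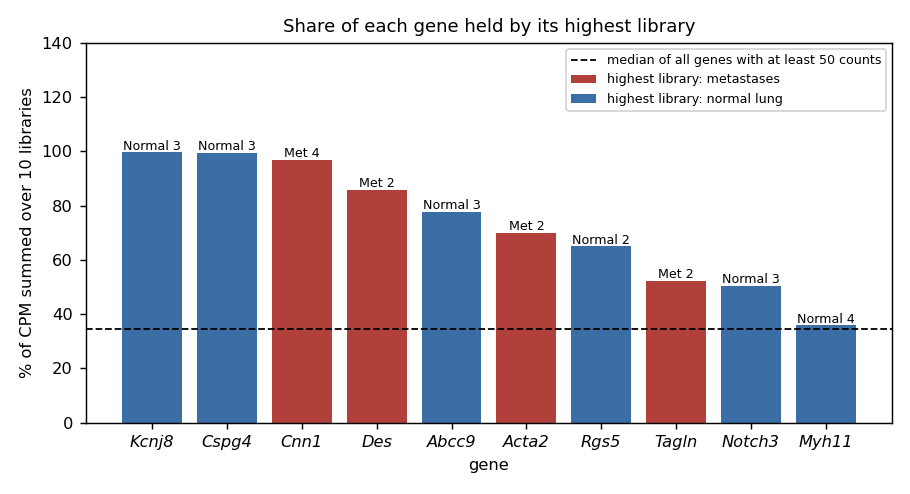
Percent of each gene's CPM, summed over the 10 libraries, that its highest library holds; red bars peak in a metastasis and blue bars in a normal lung library, named above each bar. The dashed line is the median of all genes with at least 50 counts, 34.4%, and all 10 bars stand above it.

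The rest of the mural programme did not move as a block. Of 18 other pericyte genes 8 passed the filter, and among those 1 rose and 2 fell, with a median of -1.23 against 0.06 over all tested genes. Anpep, the aminopeptidase CD13 of pericytes and also of myeloid cells and fibroblasts, rose to 247 ± 97.2 CPM in metastases, against 5.54 ± 6.63 CPM in normal lung (5.48 ± 0.70 SE, adjusted p = 5.87e-06, edgeR), and its groups did not overlap. Lamc3, a laminin chain, was 0.165 ± 0.0679 CPM in metastases and 6.69 ± 7.65 CPM in normal lung (-5.31 ± 1.61, adjusted p = 0.0209, edgeR), a fall carried by normal lung 1, 2 and 3, with 0.0571 as the adjusted p without normal lung 1. Ebf1, a transcription factor of pericytes and also of B cells and fat, was 4.35 ± 4.01 CPM in metastases and 34.7 ± 20.8 CPM in normal lung (-3.00 ± 0.96, adjusted p = 0.0282, edgeR). Its adjusted p was between 0.0553 and 0.0824 without metastasis 4, metastasis 5, normal lung 3 or normal lung 4, and 0.0921 without metastasis 2 and normal lung 3 together. Pdgfrb, at 13.1 ± 7.98 CPM in metastases and 2.69 ± 4.26 CPM in normal lung, did not pass (2.28 ± 1.33, adjusted p = 0.255, edgeR). Ndufa4l2, a mitochondrial protein of pericytes, had 0 counts in all 10 libraries.

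Of 19 other contractile genes 13 passed the filter, and among those 5 rose and 2 fell, with a median of 1.15. The 5 that rose, Tpm2, Nexn, Tpm1, Flna and Cald1, bind or cross-link actin in many cell types. Tpm2, a tropomyosin, was 99.5 ± 46.6 CPM in metastases and 7.26 ± 12.7 CPM in normal lung (3.78 ± 0.92 SE, adjusted p = 0.00452, edgeR). Nexn, nexilin, was 272 ± 118 CPM in metastases and 36.7 ± 22.2 CPM in normal lung (2.89 ± 0.54, adjusted p = 0.000497, edgeR), and neither gene's groups overlapped. Synm, synemin, an intermediate filament partner of desmin, fell to 17.3 ± 11.5 CPM in metastases, against 127 ± 41.6 CPM in normal lung (-2.88 ± 0.60, adjusted p = 0.00141, edgeR). Vcl, vinculin of adhesion sites, fell (-1.32 ± 0.37, adjusted p = 0.0138, edgeR), a direction that turned to 1.31 when libraries were scaled to the pan-endothelial genes. Myl9 did not pass (1.15 ± 1.14, adjusted p = 0.541, edgeR) and was at -0.27 without metastasis 2. Ppp1r14a, a smooth muscle phosphatase inhibitor, was at 0 in all libraries. Fibroblast and macrophage markers were higher in metastases as well (5 of 8 and 5 of 9 tested genes rose), and their part in these changes was not tested.

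Among the SRF regulators, 6 of 7 were tested, 1 rose and 1 fell, with a median of -0.06. Fhl2, a LIM domain cofactor of SRF, rose to 7.81 ± 5.85 CPM in metastases, against 0.0661 ± 0.071 CPM in normal lung (6.83 ± 1.66 SE, adjusted p = 0.00456, edgeR). Mkl2, an actin-sensing coactivator, fell (-1.05 ± 0.37, adjusted p = 0.0461, edgeR), with the sign at 1.45 under pan-endothelial scaling, and its call was lost in 14 of 26 alternatives, 8 of them a library left out. Myocd, the smooth muscle coactivator, was too sparse to test.

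Signals between endothelium and mural cells could be tested for all 12 genes. Of these 2 rose and 5 fell, with a median of -0.84. Pdgfb, the endothelial growth factor for pericytes, fell to 12.9 ± 9.42 CPM in metastases, against 95.5 ± 52.8 CPM in normal lung (-2.89 ± 0.70 SE, adjusted p = 0.00461, edgeR). S1pr1, a receptor for sphingosine 1-phosphate that steadies endothelial contacts, fell by 2.99 on the log2 scale (adjusted p = 5.95e-06, edgeR), and Dll4, Tek and Ednrb fell too. With pan-endothelial scaling, under which 60.9% of all tested genes were called higher and 0.161% lower, 0 of the 5 falls were called, and Pdgfb was at -0.23, S1pr1 at -0.39, Dll4 at -0.10, Tek at -0.16 and Ednrb at -0.15. The call of Dll4 was also lost without normal lung 1 (adjusted p = 0.0521, edgeR). Hbegf, an EGF-family ligand, rose (3.35 ± 1.19, adjusted p = 0.0477, edgeR) and Angpt1, the Tek ligand of mural cells, rose (2.68 ± 0.84, adjusted p = 0.0252, edgeR). Each of these 2 calls was lost in 13 of 26 alternatives, and Angpt1 was at 1.31 (adjusted p = 0.308, edgeR) without metastasis 1. Pan-endothelial genes fell in 16 of 19 cases with a median of -2.37, beside these falls, and the part of the endothelial share in them was not tested.

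The relatives of the marker genes that other cells express were tested as a contrast: 13 of 20 were tested, 5 rose and 2 fell, with a median of 0.79. Cnn2, the calponin of many cell types, was 56.0 ± 41.9 CPM in metastases and 6.87 ± 7.31 CPM in normal lung (3.02 ± 0.90 SE, adjusted p = 0.0193, edgeR). Cnn3, another non-muscle calponin, fell (-1.73 ± 0.51, adjusted p = 0.0179, edgeR), and turned to 0.95 with pan-endothelial scaling. The call of Cnn2 was lost without metastasis 2 (adjusted p = 0.0665) and that of Cnn3 without normal lung 5 (adjusted p = 0.0778, edgeR). By length, Cnn2 averaged 48.4 ± 30.6 FPKM and Cnn3 27.6 ± 14.3 FPKM in metastases. In normal lung they averaged 5.26 ± 3.51 and 82.7 ± 20.4 FPKM. Cnn1 averaged 0.0384 ± 0.0859 FPKM in metastases, on a low ratio of FPKM to CPM, and was listed at 0 in normal lung. Notch2, a widely expressed Notch receptor, rose (2.23 ± 0.48, adjusted p = 0.00169, edgeR) and Notch4, the endothelial receptor, fell (-2.58 ± 0.62, adjusted p = 0.00437, edgeR). With pan-endothelial scaling Notch4 was at -0.30 and its call was lost (adjusted p = 0.72, edgeR). The call of Notch4 was also lost in libraries 1 and 2 alone (adjusted p = 0.0889, edgeR). Actb, cytoplasmic actin, averaged 1180 ± 566 FPKM in metastases and 504 ± 247 FPKM in normal lung, against 3.49 and 0.517 FPKM of Acta2.

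**Figure D4:**
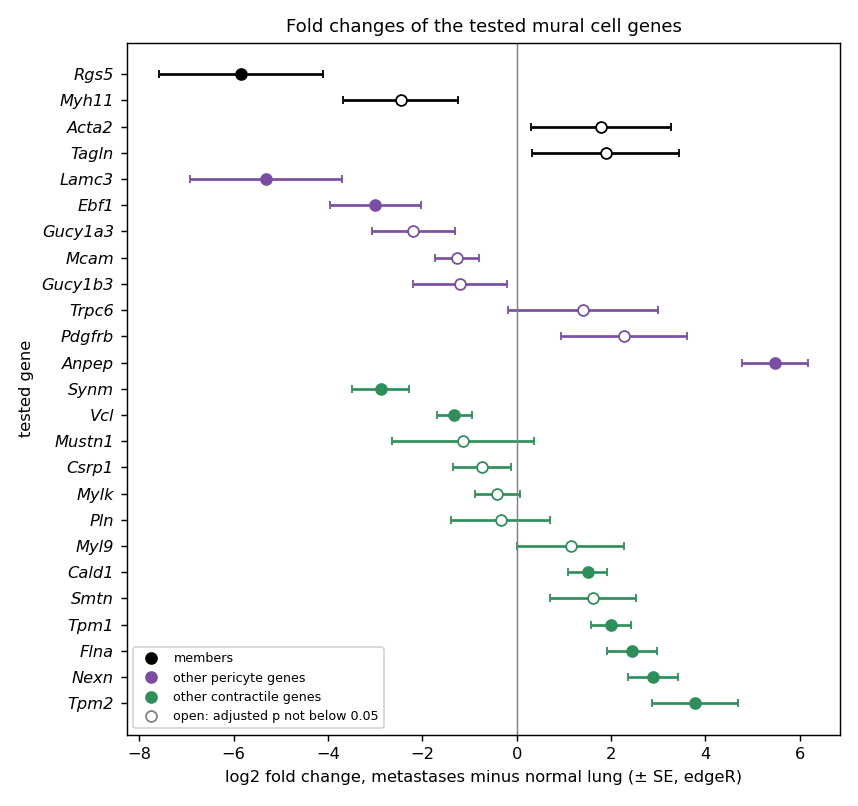
Log2 fold change, metastases minus normal lung, with SE (edgeR) for the 4 tested mural genes (black), 8 other pericyte genes (purple) and 13 other contractile genes (green). Filled points passed an adjusted p of 0.05; Rgs5 is the only filled black point.

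Markers of further cells that could pass the gate were sparse or moved apart from the mural genes. Of 11 cardiac muscle genes 5 (Myh6, Tnnt2, Myl7, Actc1 and Sln) were at 0 in all libraries and 1 was tested, Ttn, the giant sarcomere protein, which rose (3.97 ± 0.73 SE, adjusted p = 0.000452, edgeR). Schwann cell regulators Sox10 and Foxd3 were at 0 in all libraries. Of 4 mesothelial genes 0 were tested, with Upk3b at 1056 counts over the metastasis libraries and 10 over normal lung. Epithelial markers had 6 of 10 genes tested, of which Krt8, a keratin, rose (6.47 ± 1.20, adjusted p = 0.000497, edgeR). Scgb1a1 fell (-5.74 ± 1.21, adjusted p = 0.00245, edgeR), on the counts of normal lung 3 and 5, and stood at 0.20 in libraries 1 and 2 alone. Among the most abundant genes of the other marker lists, Col3a1, a collagen chain, rose by 3.87 on the log2 scale, Lyz2, the lysozyme of myeloid cells, by 3.93, and Mertk, a receptor of macrophages and some endothelium, fell by 3.21. Cdh5, the endothelial cadherin, fell by 2.18 (0.24 with pan-endothelial scaling), and Ramp2, a receptor partner in endothelium, did not pass (-1.37 ± 0.63, adjusted p = 0.138, edgeR) but was called lower without metastasis 3 (-2.62, adjusted p = 0.000785, edgeR).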

How the data were processed

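RNA of sorted CD31+/CD45- cells was measured in 5 metastasis and 5 normal lung libraries. The deposited counts are raw reads per gene, 1 value per gene and library, and the authors also deposited FPKM, fragments per transcript length and library depth, for 24460 genes. Tools named in the submitters' processing notes are HTSeq 0.6.1, TopHat2 2.0.13, DESeq2 1.6.3 and Cufflinks 2.2.1, with builds GRCm38 and mm10. The annotation is not given in the sources used here. Summary lines for reads outside genes (55.4 to 73.7% with no feature) were left out of library sizes.

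Genes were filtered with filterByExpr (11823 of 24538 passed), scaled by TMM and tested with edgeR 4.0.16 in R 4.3.3 (quasi-likelihood F test, robust, two-sided, no covariate), and p-values were adjusted by Benjamini-Hochberg over the 11823 genes, with calls under 0.05. Each SE was taken as |log2 fold change| / sqrt(F). The common biological coefficient of variation was 1.01. The fit was tested on simulated data. Depth sets the floor of 3 counts given with the results.

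The members and lists were chosen with earlier results of these data known. All 10 members are named. In each related list the 2 largest called rises and falls are named, and in cell type lists the 2 most abundant genes and those at 0. Pecam1 and Ptprc are named as sort genes. A gene that the rule names in a cell type list is not reported here. Rgs4, Postn, Thy1, Steap4, Myl9, Pdgfrb, Myocd, Tbx18, Vtn, Dll4, Tek, Ednrb, Tpm1, Flna, Cald1 and Actb were named after their values were seen. So were Higd1b, Pln and Smtn. Alternatives were DESeq2 1.42.0, other scalings and filters, limma 3.58.1 on log2(FPKM + 1) and log2(FPKM + 0.1), calls under 0.01, a replicate block, libraries 1 and 2 as a term or alone, libraries 3 to 5 alone, metastases 4 and 5 left out, and each library left out. Leaving out metastasis 2 with normal lung 3 was chosen after seeing the data. Nothing in the labels says that same-numbered libraries share an origin, or that libraries came from separate animals, so p-values measure the spread between these samples.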

Additional observations from a re-analysis of the deposited data

Results flagged for a closer look

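In 10 of the 20 sets formed by 10 genes and 2 groups, the highest library stood apart from the other 4. The gap was larger than Dixon's 95% critical value. Chance flags about 1 in 20 groups of normally distributed values, a rate that does not hold for sparse, skewed counts. No share over all genes is given here, so nothing particular to the mural genes follows from the flagged sets. In metastases these were metastasis 2 for Acta2 (43.8 CPM), Des (5.68 CPM) and Kcnj8 (0.0153 CPM, a single read), metastasis 5 for Abcc9 (1.37 CPM) and metastasis 4 for Cnn1 (4.30 CPM). In normal lung these were normal lung 2 for Rgs5 (29.0 CPM) and normal lung 3 for Cspg4 (2.21 CPM), Kcnj8 (4.21 CPM), Abcc9 (5.93 CPM) and Des (0.212 CPM, 9 reads). Counts of 0 in the other libraries make such gaps wide for sparse genes.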

How the results depend on the processing

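Of the mural genes 0 rose in all but 1 setting: scaling to the pan-endothelial genes, which lifts the median of all genes to 2.83 (library totals lift it to 0.32), called 1 higher, Acta2 (4.18, adjusted p = 0.0236, edgeR). The 1 fall, Rgs5, was lost (0 lower) with a filter of 1 CPM, where Rgs5 was not tested, with metastases 4 and 5 left out, in both subsets of libraries (1 and 2, 3 to 5), in all 3 limma fits on FPKM (2 of which filtered Rgs5 out), with pan-endothelial scaling, at a threshold of 0.01 and without metastasis 2 and normal lung 3, and was 0 to 1 with 1 library left out. Rgs5 kept its sign where it was tested. With 1 library left out, Tagln was 0.62 to 2.48 and Myh11 -3.59 to -2.01. Other pericyte genes higher numbered 2 without a filter and 3 with pan-endothelial scaling; lower numbered 1 with the CPM filter, 0 without metastases 4 and 5, in libraries 1 and 2, without metastasis 2 and normal lung 3, with pan-endothelial scaling and at 0.01, and 1 to 3 with 1 library left out. Other contractile genes higher numbered 3 with limma without a filter and 10 with pan-endothelial scaling (7197 of all 11823 genes were higher there, and 19 lower); lower numbered 0 in libraries 1 and 2 and with pan-endothelial scaling, 1 in libraries 3 to 5 and at 0.01, and 2 to 4 with 1 library left out. Acta2 turned to -0.30 in libraries 3 to 5 and -1.49 without metastasis 2 and normal lung 3, with -1.22 to 2.71 on leaving out 1 library, and Tagln to -1.25 with the term for libraries 1 and 2. Myl9 turned to -1.67 in libraries 3 to 5, -0.58 without metastasis 2 and normal lung 3, -0.33 with that term, and -0.27 to 1.83 on leaving out 1 library. Pan-endothelial scaling turned Vcl (1.31), Mkl2 (1.45), Cnn3 (0.95), Cdh5 (0.24), Ramp2 (1.10) and Pecam1 (0.42), as it sets endothelial genes level; Scgb1a1 was 0.20 in libraries 1 and 2. Other causes were not tested.

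Same-numbered libraries deviated together only weakly (correlations 0.00068 to 0.142, 2 of 5 best with their own number). This cannot settle whether they share an origin, which the labels do not say. The replicate block left 0 mural genes lower (Rgs5 -4.84, adjusted p = 0.106, edgeR) and turned Acta2 to -0.34.

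Depth limits the sparse genes: a gene at 0 is not detectable under 3 counts.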
